A study of Mus musculus with 6 samples.

Results

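The genes described here are the 3 retinoic acid receptors Rara, Rarb and Rarg, the 3 retinoid X receptors Rxra, Rxrb and Rxrg, the cellular retinoic acid binding proteins Crabp1 and Crabp2, and the retinaldehyde reductase Dhrs3. They were chosen by symbol, from the symbols that the authors' table pairs with each gene identifier, and make up 9 of the 45792 genes counted. All 9 had a row in the count table and all 9 passed the filter on low counts. RNA was sequenced from whole hearts at embryonic day 13.5, from 3 embryos labelled wild-type (control) and 3 embryos labelled Tie2Cre INO80 flox/flox (mutant), all given as strain C57BL/6. The study's methods, in contrast, describe mixed backgrounds. The paper also describes its controls as every genotype but the homozygous conditional knockout, and gives no separate rule for the sequenced hearts. The Tie2Cre transgene places Cre under the Tek promoter, so recombination of the floxed Ino80 exon was directed to endothelial cells, endocardium included, and to their descendants. Most cells of a whole heart, the cardiomyocytes among them, keep Ino80 in this model. Each library came from 1 heart.

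Ino80, which encodes the ATPase of the INO80 chromatin remodelling complex, was at 30.2, 31.6 and 32.7 CPM (counts scaled to a common library total by TMM) in the control hearts and at 36.5, 33.7 and 31.8 CPM in hearts labelled mutant. The ranges overlapped, with a log2 fold change of 0.11 and a standard error (SE) of 0.08. Reads over the whole gene from a whole heart could not be used to check a deletion of 1 exon in a subset of cells, so the hearts are called control-labelled and mutant-labelled by their labels. Library totals ran from 28948836 to 89675692 counts. Cardiomyocyte and endothelial markers were abundant in every heart, summing to 17260 to 21860 CPM and to 748 to 941 CPM, with 7 tested of 7 in each list. Liver and foregut or lung markers summed to at most 2.04 and 0.48 CPM per heart, and Nkx2-1, which defines the latter, was at 0 in every heart. Erythroid markers varied most, from 3010 to 18600 CPM per heart, and were highest in control replicate 3, at 4329, 7764 and 18600 CPM in hearts labelled control against 3010, 3578 and 5738 CPM in hearts labelled mutant. Y chromosome genes were expressed in control replicates 1 and 2 and in mutant replicate 3, so both sexes were present in both groups.

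Retinoic acid is made from vitamin A in a pair of oxidations, of retinol to retinaldehyde and of retinaldehyde to the acid, and acts on genes through the RARs. An RAR binds DNA as a dimer with an RXR, at repeated copies of a short half-site, recruits corepressors when it has no ligand, and exchanges them for coactivators when retinoic acid binds. CRABP1 and CRABP2 carry the acid inside the cell, CRABP2 being known for delivery to nuclear RARs, and DHRS3 turns retinaldehyde back into retinol, which limits synthesis. In the embryonic heart, retinoic acid is known for the patterning of the atrial end and for signals from the epicardium, the outer cell layer, that sustain growth of the compact ventricular wall. Loss of Rxra in mice is known to leave that wall thin.

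None of the 9 genes passed edgeR's quasi-likelihood test between the hearts labelled mutant and those labelled control. At an adjusted p under 0.05 the count was 0 of 9, beside 0% of all 17125 tested genes, where the smallest adjusted p over all genes was 0.053. The adjusted p-values of the 9 genes from edgeR, adjusted by Benjamini-Hochberg over the whole set, ran from 0.34 to 0.90. At an unadjusted p under 0.05 the count was also 0 of 9, beside 19.5% of all tested genes. DESeq2, the tool of the study, called 0 of the 9 at an adjusted p under 0.05, beside 6.1% of the genes to which it gave an adjusted p (2.67% higher and 3.43% lower). The median log2 fold change over the 9 genes was 0.10, beside -0.0017 over all tested genes, with 6 genes above 0 and 3 below. Those above 0 were 66.7% of the 9, beside 49.7% of all tested genes. The mutant-labelled hearts lay entirely above the control-labelled hearts for 2 genes, Rara and Rxrg, and entirely below them for 0 genes. These 2 of 9 stand beside 27.1% of all tested genes whose groups did not overlap in either direction (14.3% higher and 12.8% lower). In a whole heart, a difference in the number of cells that express a gene and a difference in RNA per cell cannot be told apart.

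**Figure D1:**
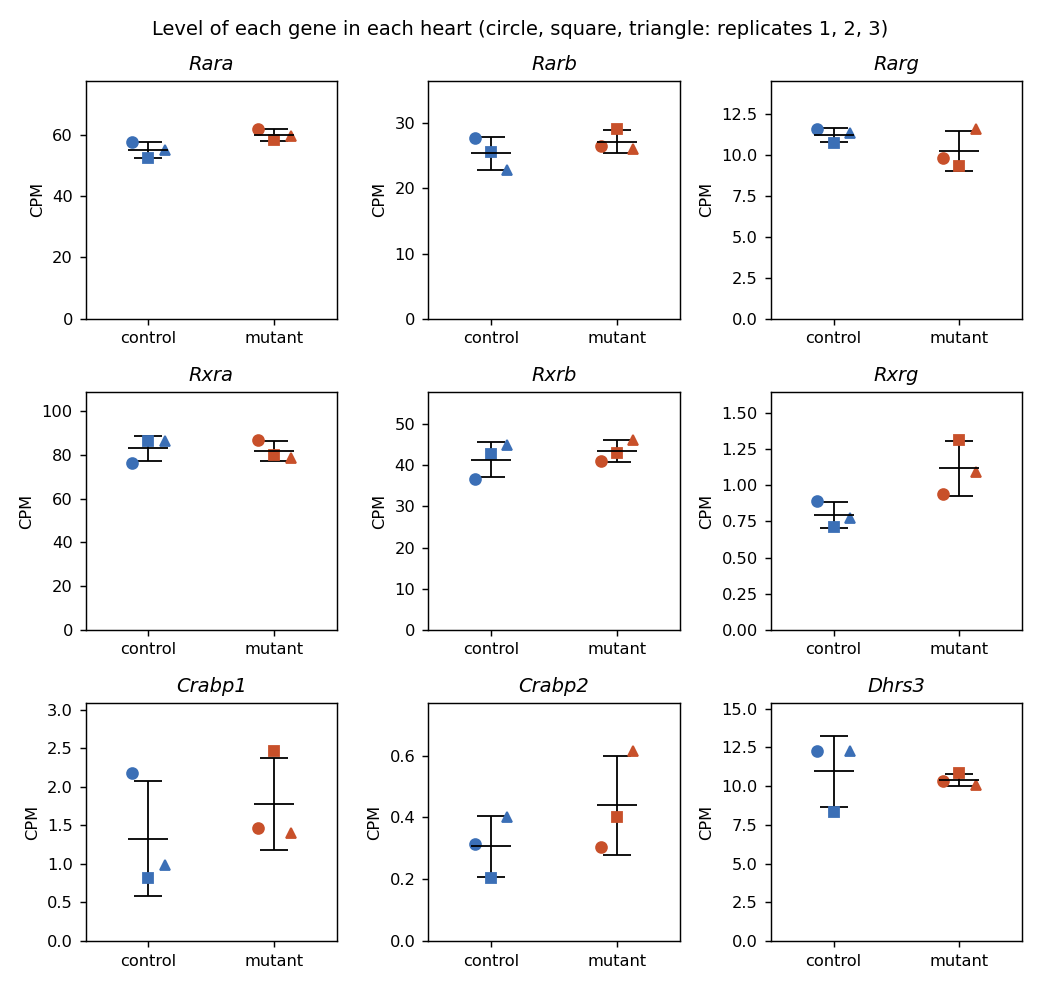
Level of each gene in CPM (y axis, from 0) in each of the 3 control-labelled (blue) and 3 mutant-labelled (red) hearts. Horizontal bars give the group mean and whiskers the SD. Among the 9 genes, the groups do not overlap for Rara and Rxrg.

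The RARs bind retinoic acid directly, and Rara, the most broadly expressed of them, was the most abundant here. Rara (ENSMUSG00000037992.14, chromosome 11 from 98927818 to 98974942, GRCm38, plus strand) was at 57.6, 52.5 and 54.9 CPM in control-labelled replicates 1 to 3 and at 62.0, 58.2 and 59.7 CPM in mutant-labelled replicates 1 to 3. All mutant-labelled hearts were above all control-labelled hearts, though the highest control-labelled heart lay within 1 CPM of the lowest mutant-labelled heart. The log2 fold change was 0.12 (SE 0.07, 95% confidence interval from -0.03 to 0.28, edgeR adjusted p = 0.35). On a linear scale the interval ran from -2.39% to 21.6%, and on the log2 scale it was the narrowest of the 9 genes. The log2 fold change of Rara kept its sign under all 13 alternatives, with values from 0.094 to 0.16.

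Rarb encodes the receptor whose own gene is a standard target of retinoic acid, through an element next to a start site. Rarb (ENSMUSG00000017491.8, chromosome 14 from 16430839 to 16819156, GRCm38, minus strand) was at 27.7, 25.6 and 22.8 CPM in hearts labelled control against 26.4, 29.2 and 26.0 CPM in hearts labelled mutant. The groups overlapped, with control replicate 3 lowest and mutant replicate 2 highest. Its log2 fold change was 0.10 (SE 0.10, 95% confidence interval from -0.12 to 0.32, edgeR adjusted p = 0.58). Without control replicate 3 it was 0.029, and without control replicate 1 it was 0.17.

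The promoter of Rarb is shown because it holds the known retinoic acid response element of this gene. Promoter windows of 300 bases, 250 before and 50 after each annotated start, were taken from RefSeq (GRCm38.p6) and matched by symbol for 8 of the 9 genes, 17 windows in all. Crabp2 had none. Both strands were searched for the half-sites AGGTCA or AGTTCA or GGGTCA or GGTTCA, repeated in the same direction and spaced by 1, 2 or 5 bases (DR1, DR2 and DR5), which are the spacings RAR and RXR dimers are known to bind. Of the 17 windows, 1 held such a repeat, the DR5 of Rarb at bases -53 to -37 from the start (chr14:16575513-16575529), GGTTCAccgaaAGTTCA. A DR5 was present in 32 of 32851 promoter windows, or 0.0974%, and any of the 3 spacings in 0.588%. Among 67 genes of the pathway lists described further on, 48 had a window and 2 held a repeat. One is Cyp26a1, which encodes an enzyme that breaks down retinoic acid, with a DR5 on the strand opposite to the gene at bases -32 to -16 (chr19:37697776-37697792), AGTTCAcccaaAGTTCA. The other is Bco1, a carotenoid oxygenase that supplies retinaldehyde, with a DR1, AGGTCAaAGGTCA. The windows of Rarb (chr14:16575427-16575726, minus strand) and Cyp26a1 (chr19:37697558-37697857, plus strand) are given 5′ to 3′ on the gene's strand, with the half-sites of the DR5 in capitals, so that those of Cyp26a1 appear as the reverse complement.
Rarb: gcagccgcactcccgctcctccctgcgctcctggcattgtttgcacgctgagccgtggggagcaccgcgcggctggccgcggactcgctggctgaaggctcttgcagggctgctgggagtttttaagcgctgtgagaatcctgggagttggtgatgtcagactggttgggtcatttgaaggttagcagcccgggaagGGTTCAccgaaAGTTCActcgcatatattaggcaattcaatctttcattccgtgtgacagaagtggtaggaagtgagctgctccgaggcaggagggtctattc
Cyp26a1: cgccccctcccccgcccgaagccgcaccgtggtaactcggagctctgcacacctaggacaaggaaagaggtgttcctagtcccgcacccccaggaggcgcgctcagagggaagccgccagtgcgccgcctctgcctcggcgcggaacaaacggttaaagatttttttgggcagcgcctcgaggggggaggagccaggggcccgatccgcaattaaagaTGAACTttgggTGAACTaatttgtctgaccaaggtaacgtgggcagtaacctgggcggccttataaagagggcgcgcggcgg
A match is a description of these letters, and no match in a window says nothing of more distant elements. The groups overlapped for both genes. Cyp26a1 was at 0.42, 0.41 and 0.15 CPM in hearts labelled control against 0.39, 0.42 and 1.23 CPM in hearts labelled mutant. Mutant replicate 3 alone was high for Cyp26a1, whose log2 fold change was 0.96 with all hearts and 0.30 without that heart.

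The counts of Rarb carry a further limit. In GENCODE vM21, Rarb shares 1793 of its 5265 exon bases with Top2b, which encodes DNA topoisomerase II beta and runs on the opposite strand, and 227 with the antisense gene Gm48162. How reads over several genes were assigned is not given in the sources used here, and the library kit does not mark strand by its standard protocol. Top2b, looked at for its position after the values were seen, was at 269, 269 and 251 CPM in hearts labelled control against 243, 255 and 231 CPM in hearts labelled mutant, with overlap and a log2 fold change of -0.11. Its sign was opposite to that of Rarb, and its share in the count of Rarb was not tested.

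Rarg, known for its role in epithelia and cartilage, was the lowest of the RARs and the only one with a log2 fold change below 0. Rarg (ENSMUSG00000001288.12, chromosome 15 from 102234938 to 102257517, minus strand) was at 11.6, 10.7 and 11.3 CPM in hearts labelled control against 9.79, 9.28 and 11.6 CPM in hearts labelled mutant. Mutant replicates 1 and 2 were below every control-labelled heart, whereas mutant replicate 3 was as high as the highest of them. On the log2 scale the fold change was -0.14 (SE 0.12, 95% confidence interval from -0.40 to 0.13, edgeR adjusted p = 0.53). Leaving out mutant replicate 3 took it to -0.23.

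The RXRs dimerize with RARs and with other nuclear receptors. Rxra, the RXR that the ventricular wall is known to need, was the member with the most counts, 21983 over the 6 hearts. Rxra (ENSMUSG00000015846.12, chromosome 2 from 27676440 to 27762957, plus strand) was at 76.4, 86.4 and 86.4 CPM in hearts labelled control against 87.0, 79.9 and 78.5 CPM in hearts labelled mutant. Each group spanned nearly the same range. This gave a log2 fold change of -0.02 (SE 0.08, 95% confidence interval from -0.20 to 0.16, edgeR adjusted p = 0.90). The interval of the change, from -12.9% to 11.5%, was the next narrowest after that of Rara, and the sign depended on single hearts.

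Rxrb, a ubiquitous RXR, was at 36.6, 42.7 and 44.9 CPM in hearts labelled control against 41.1, 43.1 and 46.3 CPM in hearts labelled mutant (ENSMUSG00000039656.14, chromosome 17 from 34031812 to 34038399, plus strand). Control replicate 1 lay below the other hearts, which formed a single range. The log2 fold change was 0.07 (95% confidence interval from -0.15 to 0.29, edgeR adjusted p = 0.71) and was -0.011 without control replicate 1.

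Rxrg, which is known from skeletal muscle and the nervous system, was low, with 21 to 87 counts per heart. Rxrg (ENSMUSG00000015843.8, chromosome 1 from 167598384 to 167639623, plus strand) was at 0.89, 0.71 and 0.77 CPM in hearts labelled control against 0.94, 1.32 and 1.09 CPM in hearts labelled mutant. The groups did not overlap, but control replicate 1 and mutant replicate 1 were nearly level. Its log2 fold change was 0.48 (SE 0.26, 95% confidence interval from -0.12 to 1.08, edgeR adjusted p = 0.34), the largest of the 9. It stayed above 0 in all 12 alternatives that could be computed, lowest at 0.34 without mutant replicate 2 and highest at 0.60 without mutant replicate 1.

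The binding proteins were low and varied most from heart to heart. Crabp1 (ENSMUSG00000032291.8, chromosome 9 from 54764748 to 54773110, plus strand) was at 2.18, 0.82 and 0.99 CPM in hearts labelled control against 1.46, 2.47 and 1.40 CPM in hearts labelled mutant. Control replicate 1 and mutant replicate 2 were the high hearts, so each group held a high heart and a pair of lower ones. On the log2 scale the fold change was 0.40 (SE 0.41, 95% confidence interval from -0.54 to 1.35, edgeR adjusted p = 0.60). It depended on those hearts: it was 0.97 without control replicate 1 (unadjusted p = 0.026, edgeR adjusted p = 0.16), the only alternative in which any member passed an unadjusted p of 0.05, and 0.097 without mutant replicate 2.

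Crabp2 (ENSMUSG00000004885.5, chromosome 3 from 87948666 to 87953376, plus strand) had only 6 to 28 counts per heart. It was at 0.32, 0.20 and 0.40 CPM in hearts labelled control against 0.30, 0.40 and 0.62 CPM in hearts labelled mutant. The groups overlapped, with mutant replicate 3 highest. This gave a log2 fold change of 0.44, with a 95% confidence interval from -0.53 to 1.41 (edgeR adjusted p = 0.58). Leaving out 1 heart moved it to between 0.17 without mutant replicate 3 and 0.69 without mutant replicate 1, and it was 0.24 without control replicate 2. Counting error alone gives an SD of 40.8% at the lowest count, that of control replicate 2. A change of that size in that heart could not be told from counting error.

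Dhrs3, whose transcription retinoic acid is known to raise, was at 12.3, 8.31 and 12.3 CPM in hearts labelled control against 10.4, 10.8 and 10.1 CPM in hearts labelled mutant (ENSMUSG00000066026.12, chromosome 4 from 144892827 to 144928209, plus strand). The mutant-labelled hearts lay inside the range of the control-labelled hearts. The log2 fold change was -0.07 (SE 0.16, 95% confidence interval from -0.44 to 0.29, edgeR adjusted p = 0.82). Control replicate 2 was the low heart, and without it the log2 fold change was -0.24, whereas without control replicate 1 it was 0.016.

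**Figure D2:**
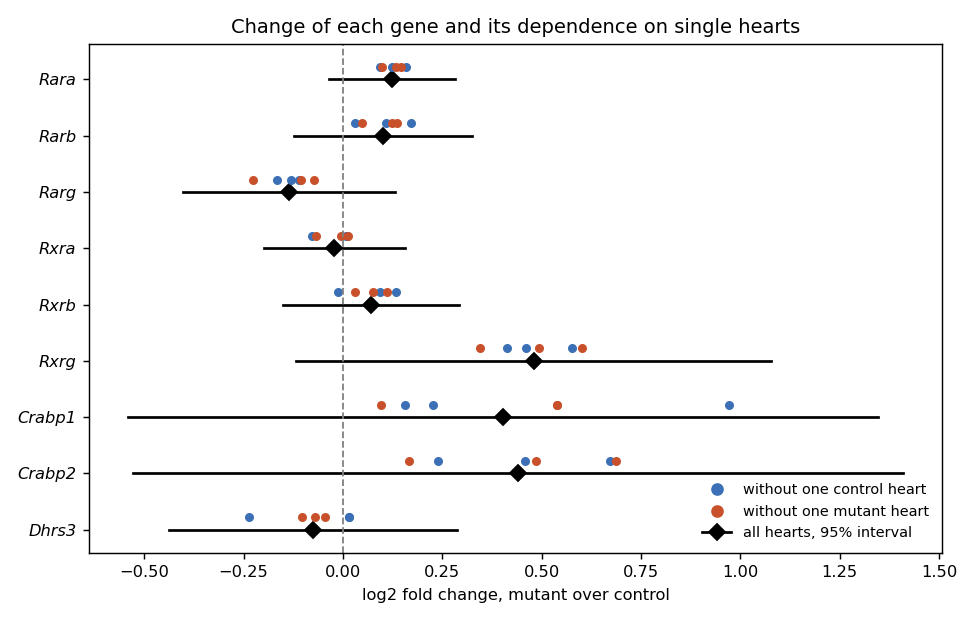
Log2 fold change of each gene, mutant-labelled over control-labelled (x axis), with its 95% confidence interval from edgeR (black) and the values from the fits that left out 1 control-labelled (blue) or 1 mutant-labelled (red) heart. Every interval includes 0, and the intervals of Rxrg, Crabp1 and Crabp2 are the widest.

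CPM values depend on gene length, so levels of different genes were compared as CPM per kilobase of exon (RPKM, exons of GENCODE vM21 merged). Over the 6 hearts the order was Rxra at 15.1 ± 0.86 RPKM, Rara at 13.2 ± 0.77, Rxrb at 10.7 ± 0.85, Rarb at 4.99 ± 0.41, Dhrs3 at 3.65 ± 0.51, Rarg at 2.51 ± 0.23, Crabp1 at 1.94 ± 0.81, Rxrg at 0.42 ± 0.10 and Crabp2 at 0.28 ± 0.11 (SD, n = 6 hearts). Rxra, Rara and Rxrb were the leading 3, and both binding proteins lay in the lower part of the order. Between neighbours in this order, the ranges over hearts overlapped for Rxra and Rara, for Rarg and Crabp1, and for Rxrg and Crabp2. Within a heart, Rxra was above Rara in 6 of 6 hearts and Rarg above Crabp1 in 5 of 6. With the longest annotated coding transcript as the length, Rara (17.0 RPKM), Rxra (16.8 RPKM) and Rxrb (16.2 RPKM) were nearly level and the first pair changed places, so the order of these 3 rests on the choice of length. Rarb was at 8.46 RPKM by that length and stayed in the fourth place. It also stayed there at 7.57 RPKM, where its whole count was divided by the exon bases it does not share with Top2b. That value takes no read to come from the bases shared with Top2b, and the overlap with Gm48162 was not subtracted.

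**Figure D3:**
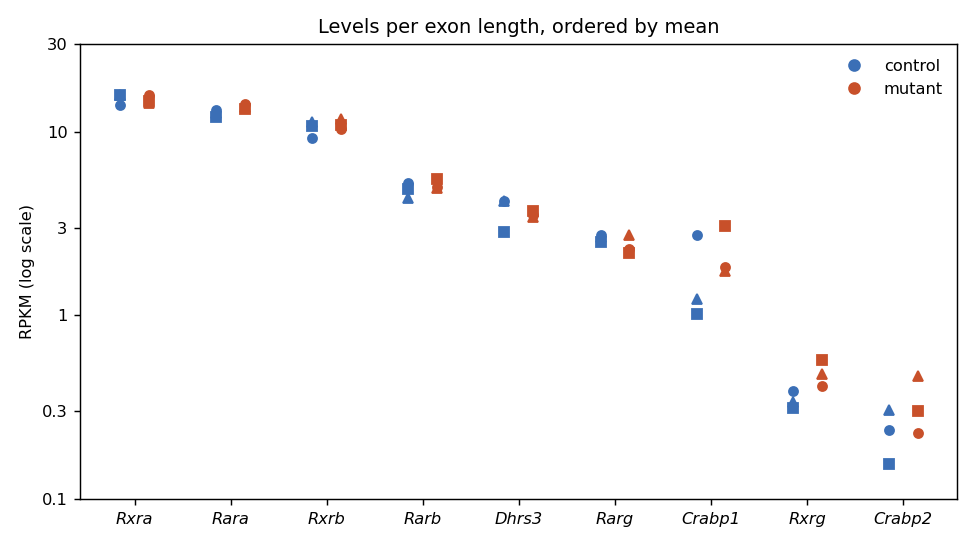
Levels in RPKM on a log scale (y axis) of the 9 genes in order of their mean (x axis), 1 point per heart, control-labelled in blue and mutant-labelled in red. The 5 receptors other than Rxrg, with Dhrs3 and Crabp1, lie above 1 RPKM in every heart, and Rxrg and Crabp2 lie at or under 0.573 RPKM.

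By merged exon length, the order of the genes within each receptor family was the same in every heart. Rara gave between 62.0% and 66.0% of summed RAR transcripts per length, Rarb between 22.1% and 26.4%, and Rarg between 10.4% and 13.6%. The share of Rarg was 13.1% ± 0.38 under the control label and 11.3% ± 1.30 in hearts labelled mutant (SD, n = 3 each), without overlap. However, mutant replicate 3, at 12.76%, was nearly level with control replicate 1, at 12.84%. Summed RAR transcripts were at 21.2, 19.4 and 19.6 RPKM in hearts labelled control against 21.5, 21.1 and 21.3 RPKM in hearts labelled mutant, with control replicate 1 inside the range of the latter. Among RXRs, Rxra gave between 54.3% and 59.7% of the sum, Rxrb between 38.8% and 43.9%, and Rxrg between 1.16% and 2.20%. With the longest coding transcript as the length, a choice added after seeing the data, Rxra gave between 46.9% and 52.4% and Rxrb between 46.3% and 51.6%, and Rxrb led in mutant replicates 2 and 3. By that length Rara still led the RARs (56.7% to 60.8%) and Crabp1 the binding proteins (72.6% to 88.9%) in 6 of 6 hearts. The sum of RXR over the sum of RAR transcripts was 1.30 ± 0.16 under the control label and 1.24 ± 0.0024 in hearts labelled mutant (SD, n = 3 each). Its control-labelled values, 1.11, 1.39 and 1.40, lay on both sides of the mutant-labelled values. Crabp1 made up between 79.0% and 91.9% of the summed binding protein transcripts. These shares are descriptions, and no test was made on them.

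**Figure D4:**
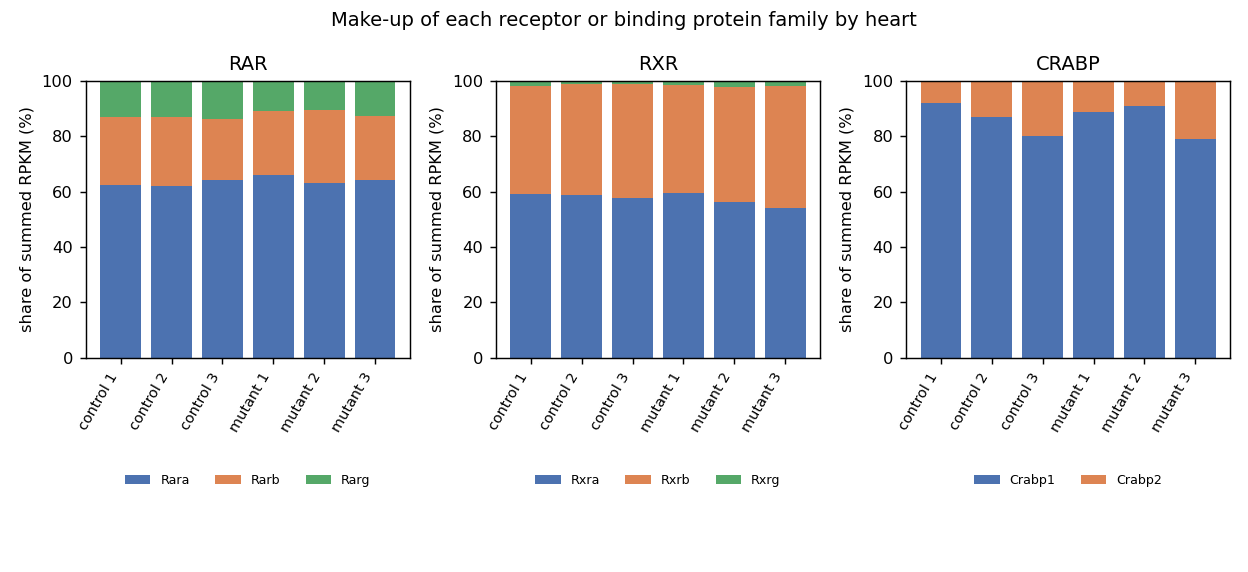
Share in percent (y axis) of each gene in the summed RPKM of its family in each of the 6 hearts (x axis), for RARs, RXRs and CRABPs. By merged exon length, Rara, Rxra and Crabp1 are the largest share in every heart, at 62.0% to 66.0%, 54.3% to 59.7% and 79.0% to 91.9%, while by the longest coding transcript Rxrb exceeds Rxra in 2 hearts.

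Aldh1a2, the enzyme that makes most retinoic acid in the embryo and in the epicardium, was compared with the receptors heart by heart. It was at 20.9, 21.8 and 14.4 CPM in hearts labelled control against 22.7, 25.2 and 17.9 CPM in hearts labelled mutant, a log2 fold change of 0.21 (SE 0.18, edgeR adjusted p = 0.53). Replicate 3 was the lowest heart of each group, and the log2 fold change was 0.045 without control replicate 3, 0.10 without mutant replicate 2, 0.32 without control replicate 2 and 0.34 without mutant replicate 3. Among 18 relations computed on log2(CPM + 1), of the 9 genes with Aldh1a2 and with summed epicardial markers, Rarb with Aldh1a2 had a Pearson r of 0.88 over the 6 hearts (exact permutation p = 0.029, 0.26 after Benjamini-Hochberg adjustment). Its Spearman rho was 0.71 (exact permutation p = 0.14, 0.41 after adjustment), and r was 0.62 without the replicates 3, the hearts farthest from the median of Aldh1a2. After subtraction of each group's mean, r was 0.86. Rxrg with summed epicardial markers had an r of 0.87 (exact permutation p = 0.025, 0.26 after adjustment) and a rho of 0.94 (exact permutation p = 0.017, 0.26 after adjustment), with r at 0.56 without control replicate 2 and mutant replicate 2 and at 0.62 after subtraction of group means. None of the 18 passed after adjustment, and the relations were chosen with the values known.

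Summed epicardial markers, given beside the receptor values, separated the groups. Summed over 10 genes they were at 204 to 234 CPM for the control label and at 244 to 274 CPM in hearts labelled mutant, without overlap. Of all single tested genes, 27.1% had groups without overlap in either direction. Upk3b and Krt19 differed most in mean CPM, at 42.2 and 16.1 under the control label and 62.7 and 25.9 in hearts labelled mutant. At an unadjusted p under 0.05 in edgeR, Upk3b, Krt19 and Bnc1 passed as higher and Upk1b as lower, of the 10. The shares of all tested genes were 9.48% higher and 9.98% lower. Wt1 and Tbx18, which define the layer, had log2 fold changes of 0.0046 and -0.10. The part of these markers in the values of the receptors was not tested.

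Genes that supply and remove retinoic acid were read in the same fit. Of 14 genes of uptake and synthesis, 10 were tested, and 0 passed an unadjusted p of 0.05 in either direction, beside 9.48% of all tested genes higher and 9.98% lower. Rdh10, which carries out the first oxidation in the embryo, was at 9.10 ± 0.39 CPM under the control label and 9.41 ± 0.52 CPM in hearts labelled mutant (SD, n = 3 each). Rdh11, another retinol dehydrogenase, was at 23.1, 20.9 and 19.6 CPM in hearts labelled control against 23.4, 24.0 and 23.3 CPM in hearts labelled mutant, without overlap, and its log2 fold change was 0.15 (edgeR adjusted p = 0.37). Ttr, a plasma carrier of the retinol binding protein, was between 0.29 and 0.49 CPM in hearts labelled control and between 0.19 and 0.24 CPM in hearts labelled mutant, also without overlap, with a log2 fold change of -0.79 (edgeR adjusted p = 0.30). Lrat, which stores retinol as its ester, varied more within the groups than between them, and was at 4.70, 3.88 and 0.031 CPM for the control label and at 5.10, 6.09 and 0.034 CPM in hearts labelled mutant. Control replicate 3 and mutant replicate 3 each had 1 count of Lrat. These 2 hearts also had the highest summed erythroid markers of their groups, at 18600 and 5738 CPM. They had the lowest Aldh1a2 of their groups too, at 14.4 and 17.9 CPM. A cause of the low Lrat was not tested. Of the 3 degrading enzymes, 2 were tested, and 0 passed. Cyp26b1 was at 4.41 ± 0.97 CPM under the control label and 5.02 ± 0.14 CPM in hearts labelled mutant (SD, n = 3 each).

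Of the receptor cofactors, all 15 were tested, with a median log2 fold change of 0.0035, and 1 passed an unadjusted p of 0.05 in each direction, beside 9.48% of all tested genes higher and 9.98% lower. Kat2b, a histone acetyltransferase that acts as a coactivator, was between 88.8 and 96.8 CPM in hearts labelled control and between 70.7 and 76.04 CPM in hearts labelled mutant, without overlap. Its log2 fold change was -0.35 (SE 0.07, edgeR adjusted p = 0.083, which was 0.034 without control replicate 1 and between 0.16 and 0.24 without any other heart), and DESeq2 called it lower with an adjusted p of 0.0047. Carm1, an arginine methyltransferase that assists coactivators, had a log2 fold change of 0.21 (edgeR adjusted p = 0.21). The corepressor Ncor1 had a log2 fold change of 0.0035.

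Other nuclear receptors share RXR as a partner. Of 13 such genes, 11 were tested, of which 2 passed an unadjusted p of 0.05 as lower and 0 as higher, beside 9.98% and 9.48% of all tested genes. Ppara, which drives fatty acid oxidation, was at 8.28, 21.6 and 14.7 CPM in hearts labelled control against 6.73, 5.71 and 6.50 CPM in hearts labelled mutant. All mutant-labelled hearts were below all control-labelled hearts, with control replicate 1 nearest to them. Its log2 fold change was -1.23 (SE 0.30, edgeR adjusted p = 0.11), and DESeq2 called it lower, with an adjusted p of 6.7e-04. Pparg, low at 1.33 to 2.87 CPM, had a log2 fold change of -0.62 (edgeR adjusted p = 0.20). The edgeR adjusted p of Ppara was 0.0096 without control replicate 1 and between 0.19 and 0.28 without any other heart. The median over the 11 was -0.09. A difference between these genes and the RXRs was not tested.

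Among genes known to respond to retinoic acid, 9 of 15 passed the filter on low counts and were tested. At an unadjusted p under 0.05, 3 of the 9 passed as higher and 0 as lower, beside 9.48% and 9.98% of all tested genes. Tbx5, a cardiac transcription factor of the atria and left ventricle, was at 41.5, 40.6 and 37.6 CPM in hearts labelled control against 58.7, 62.4 and 53.2 CPM in hearts labelled mutant. The groups did not overlap, with a log2 fold change of 0.54 (SE 0.08, edgeR adjusted p = 0.065). On leaving out 1 heart its adjusted p was 0.026 without control replicate 1 and between 0.13 and 0.24 without any other. Nr2f1, an orphan receptor of the atrial chambers, was at 3.42, 4.77 and 5.93 CPM in hearts labelled control against 8.52, 10.9 and 7.69 CPM in hearts labelled mutant, without overlap. Its log2 fold change was 0.94 (SE 0.22, edgeR adjusted p = 0.10). Its relative Nr2f2 had a log2 fold change of 0.28 (edgeR adjusted p = 0.20). DESeq2 called Tbx5 and Nr2f1 higher, with adjusted p-values of 7.1e-05 and 0.0024, and not Nr2f2. Of 4 atrial markers, 2 passed an unadjusted p of 0.05 in edgeR as higher (Myl7 and Myl4) and 0 as lower. Beside them stand 9.48% and 9.98% of all tested genes. The sum of the 4 was 1540 to 1853 CPM under the control label and 1925 to 2456 CPM in hearts labelled mutant. Myl7 and Myl4 had log2 fold changes of 0.69 and 0.30, Nppa and Sln of 0.25 and -0.17, and the part of atrial tissue in the values of Tbx5, Nr2f1 and Nr2f2 was not tested. Rarb and Dhrs3, which also respond to retinoic acid, did not pass the same test.

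The CRABPs belong to a family of small intracellular lipid carriers, and their relatives were read beside them. Of 8 relatives, 6 were tested, of which 4 passed an unadjusted p of 0.05 as lower and 0 as higher, beside 9.98% and 9.48% of all tested genes, with a median log2 fold change of -0.81. Fabp4, the carrier of capillary endothelium, had a log2 fold change of -0.96 (SE 0.22, edgeR adjusted p = 0.097), Fabp3, the carrier of heart muscle, of -0.66, Fabp7 of -1.06, and Rbp7, a retinol carrier of endothelium, of -1.16. Rbp7 was at 1.87, 5.58 and 8.36 CPM in hearts labelled control against 2.10, 2.54 and 2.43 CPM in hearts labelled mutant, with control replicate 1 below them all. DESeq2 called Fabp3, Fabp4 and Fabp7 lower. On leaving out 1 heart at a time, the edgeR adjusted p ran from 0.0012 to 0.27 for Fabp4, from 0.010 to 0.28 for Fabp3 and from 0.014 to 0.44 for Rbp7, each lowest, and past the threshold, without control replicate 1 alone. The log2 fold change of Rbp7 was -0.66 without control replicate 3, and that of Fabp7 was -0.56 without control replicate 2. Erythroid markers all had log2 fold changes below 0, 5 in number. Of the 5 erythroid markers, 3 passed an unadjusted p of 0.05 in edgeR, beside 9.98% of all tested genes as lower. Over the control-labelled hearts their sum was in the same order as Rbp7 and Fabp3, but not as Fabp4 or Fabp7. Over the mutant-labelled hearts it was, of these genes, in the same order as Fabp3 only. The part of erythroid cells in these values was not tested. Fabp5, which is known to carry retinoic acid to another nuclear receptor, was at 304, 211 and 336 CPM in hearts labelled control against 227, 228 and 263 CPM in hearts labelled mutant, with overlap. A difference between these relatives and the CRABPs was itself not tested, and the intervals of Crabp1 and Crabp2 are wide enough to include changes of -31.3% and -30.7%.

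**Figure D5:**
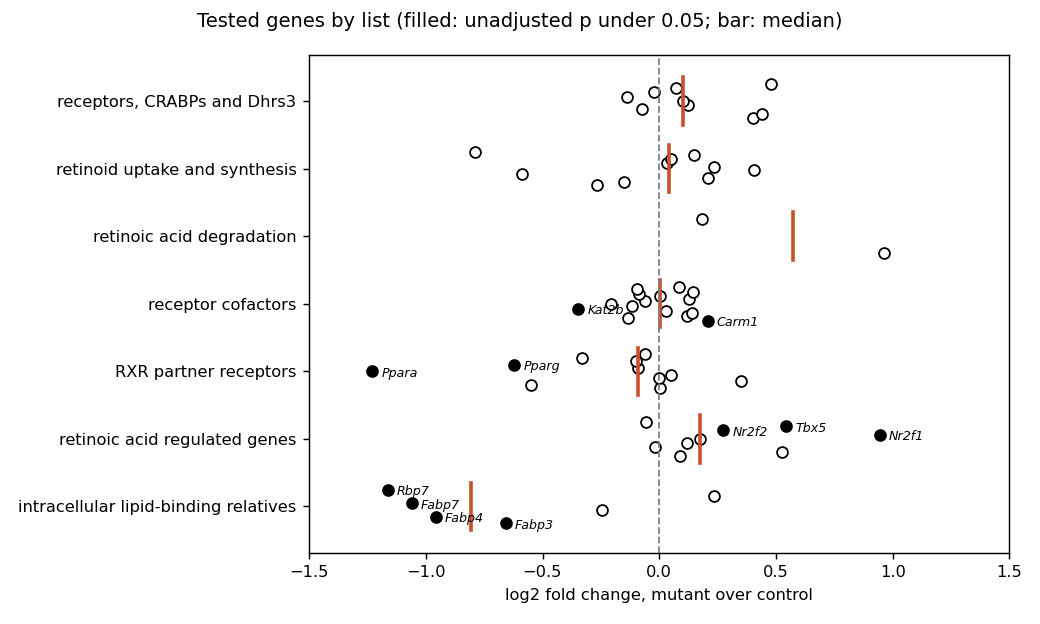
Log2 fold change, mutant-labelled over control-labelled (x axis), of each tested gene of the 9 receptors and binding proteins and of 6 pathway lists (y axis). Filled points passed an unadjusted p of 0.05 in edgeR and are named, and red bars mark each list's median, which is 0.10 for the 9 genes and -0.81 for the lipid-binding relatives.

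Crabp1 had the largest change among members whose mean reached 1 CPM, and its profile over the hearts was compared with that of 14634 other tested genes at that level. The 5 genes with the highest Pearson r of log2(CPM + 1) over the 6 hearts were Id2 (r = 0.99), the unnamed gene RP23-304A10.2, Fam49a, Ythdf2 and C1qtnf7 (r = 0.98 for each). Id2, an inhibitor of helix-loop-helix transcription factors, was at 83.4, 42.5 and 46.4 CPM in hearts labelled control against 62.0, 81.4 and 60.1 CPM in hearts labelled mutant, high in the same control replicate 1 and mutant replicate 2 as Crabp1. These values were picked as the highest among many genes over 6 hearts and are given as a description. Among the members themselves, Crabp1 was most like Rarb (r = 0.84) and Rxrg (r = 0.78) over the same hearts.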

How the data were processed

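Per the paper's methods, paired-end reads were mapped to GRCm38 with STAR (2.4.2a in the submitters' processing notes) and the GENCODE vM6 annotation and counted with summarizeOverlaps. The deposited count table holds raw counts per gene without normalization. The second deposited table holds the authors' DESeq2 comparison, of which only the gene symbols were used. No column of the tables was left unmatched to a sample.

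The filter on low counts was filterByExpr, with a minimum count of 10 and a minimum total of 15. Counts were scaled by TMM and tested with edgeR 4.0.16 in R 4.3.3, with condition as the only term and Benjamini-Hochberg adjustment over 17125 genes. CPM and RPKM (CPM per 1000 bases of merged exons) were computed with the same scaling. DESeq2 1.42.0 was an alternative, as were RLE size factors, other filters, thinning, leaving out each heart, a replicate block and a Y chromosome covariate. Standard errors are the log2 fold change over the square root of F. The common biological coefficient of variation was 0.15.

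Coordinates are from GENCODE vM21 (GRCm38). Named genes are the members, genes of the lists, Ino80 and the 5 genes most like Crabp1. The members, lists and relations were chosen with earlier results of these data known, and lists were compiled from general knowledge. Scripts were tested on simulated data. Of the other marker lists, summed CPM overlapped between groups for mesenchymal (2027 to 3121), smooth muscle (1195 to 1449) and neural crest, glial and neuronal genes (7.14 to 8.86), although Postn, Dcn and Lum were called lower by DESeq2 (log2 fold changes by edgeR of -0.43, -0.46 and -0.42), as was Myh11 (-2.40), and Cnn1 was called higher (0.48), and macrophage genes were at 27.3 to 40.2 in control-labelled and 40.3 to 42.5 in mutant-labelled hearts. Values of some list genes are not reported here.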

Additional observations from a re-analysis of the deposited data

How the results depend on the processing

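No member passed an adjusted p of 0.05 under any of the 13 alternatives, where the smallest adjusted p was 0.16, and the sign of 109 of 115 recomputed log2 fold changes was that of the reported value. The 6 that changed sign came from leaving out 1 heart: Rxra was at 0.0098, 0.0083 and 0.012 without control replicate 2, control replicate 3 and mutant replicate 3 (range -0.078 to 0.012), Rxrb at -0.011 without control replicate 1 (to 0.13), and Dhrs3 at 0.016 and 0.015 without control replicates 1 and 3 (from -0.24). Of other named genes, Aldh1a1 turned to 0.084 without mutant replicate 2 (from -0.29), Adh1 to 0.065 without control replicate 1 (from -0.47), and Lrat to -0.16 and -0.088 without control replicate 3 and mutant replicate 2 (to 0.99). Leaving out 1 heart gave 0 to 1 members past an unadjusted p of 0.05, beside 13.7% to 22.8% of all tested genes. It gave 2 to 4 members without overlap. Both counts, and the share of 22.8%, were highest without control replicate 1. The share of all genes without overlap was not computed with 1 heart left out, where smaller groups separate more readily. Genes called over the whole table numbered 1013 by DESeq2, 603 where every gene with a count was kept, 4 after thinning, and 0 to 751 on leaving out 1 heart (3 without control replicate 2, 751 without control replicate 1). With the filter of 1 CPM, Crabp2 and Rxrg were not tested. Counts of list genes at an unadjusted p under 0.05 moved by 1 or 2 genes: for uptake and synthesis 2 where every gene with a count was kept and 0 to 1 on leaving out 1 heart, for RXR partners 1 after thinning and 1 to 3, for degradation 1 with the Y chromosome covariate and 0 to 1, and for cofactors 1 to 3. For retinoic acid regulated genes the count was 2 with the Y chromosome covariate and 2 to 4 on leaving out 1 heart. For lipid-binding relatives it was 3 with the replicate block and 3 to 4 on leaving out 1 heart. Same-numbered hearts did not deviate together (r of 0.025, -0.084 and -0.073), so the numbers were not taken as pairs. With the replicate block, 14 genes were called over the whole table, 1 gene each of uptake and synthesis (Aldh1a2) and of RXR partners passed an unadjusted p of 0.05, and 0 members did. Per-length levels of 7 members moved by more than their SD with another gene length. Counting error gave an SD of 2.09% to 6.40% at the lowest count of a heart for 6 members, and of 21.8%, 20.4% and 40.8% for Rxrg, Crabp1 and Crabp2.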
